A study of Mus musculus with 14 samples.

Results

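The Myc, Max and Mxd network is a set of basic helix-loop-helix leucine zipper transcription factors, described here in whole mouse ear through 10 genes: Myc, Mycl, Mycn, Max, Mxd1, Mxd3, Mxd4, Mxi1, Mnt and Mlx. The members were chosen by name as rows of the deposited table, 10 of 24035 genes, and each was found once. The set was proposed after earlier results of these data had placed Mycl among the strongest decreases after croton oil in both genotypes. The members' values for croton oil against vehicle are therefore a description, given with no p-value. Where such a value is said to be called or not called, this tells only how the fit marked it. Nothing is read from it, nor from its loss when samples are left out. All 10 members passed the filter on low values, which asked for at least 1 TPM in at least 3 samples (TPM, transcripts scaled to the same total in every sample and divided by length). Mycn passed it through the LC-DTA samples, since only 1 LC-DTR sample reached 1 TPM.

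Whole ear tissue of mice was profiled by mRNA sequencing in 14 samples. Every group had lost its Langerhans cells, which are dendritic cells that live in the epidermis. LC-DTA samples came from mice with long-term ablation, and LC-DTR samples from mice given diphtheria toxin (DT) 3 days earlier, a short-term ablation. Both sides of the ear were painted with 20 µl of vehicle (acetone and olive oil) or of 1% croton oil, a skin irritant rich in phorbol esters, for 6 h. Of the 4 groups, the vehicle group of each genotype had 3 samples and the croton oil group 4. No group with intact Langerhans cells and no unpainted ear was analysed here, so a difference between genotypes sets 2 kinds of ablation side by side. The labels name DT for LC-DTR samples only, so the toxin and the length of the ablation cannot be told apart. The labels do not give the promoter behind each transgene or the age and sex of the mice. Neither do the labels say that samples were separate animals, so p-values measure the spread between these samples, which may be technical in part.

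Proteins of this network bind DNA as pairs. Myc, Mycl and Mycn each pair with Max and recruit coactivators to genes of growth, ribosome assembly and metabolism, whereas the Mxd proteins, Mxi1 and Mnt pair with the same Max and recruit Sin3 corepressors, so the families compete for Max and for DNA. Mlx is a second hub: it pairs with Mxd1, Mxd4 and Mnt as well as with the glucose-sensing factors Mlxip and Mlxipl. In epidermis Myc is known for driving basal cells to grow and to leave the stem cell pool, and Mxd1 is known as a gene of differentiating keratinocytes.

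The core DNA element of these pairs is the E-box CACGTG, which reads the same on both strands. Promoter windows were taken from RefSeq on GRCm38.p6, from 250 bases before to 50 bases after a gene's start, and 9 of the 10 members, all but Myc, had an entry. The E-box was present in the windows of 4 members, Mxd4, Mnt, Mlx and Max, and in 7.15% of all 32851 windows. These stretches are shown because they are the places where the network's own element lies beside the network's own genes. The E-box is in capitals, and each stretch reads 5′ to 3′ on the gene's strand.
Mxd4 (chr5:34187894-34187959, minus strand, E-box starting 219 bases before the gene's start): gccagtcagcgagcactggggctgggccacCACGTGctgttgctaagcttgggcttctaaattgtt
Mnt (chr11:74830771-74830836, plus strand, 123 bases before): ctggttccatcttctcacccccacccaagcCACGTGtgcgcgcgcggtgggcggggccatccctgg
Mlx (chr11:101087220-101087285, plus strand, 40 bases before): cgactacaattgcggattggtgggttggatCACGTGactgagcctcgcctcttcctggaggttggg
Max (chr12:76962234-76962263, minus strand, 3 bases before): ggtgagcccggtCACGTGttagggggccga
The heptamer TGAGTCA, searched with its reverse complement TGACTCA as the element through which phorbol esters are known to act, was in none of the windows of these 9 members and in 5.20% of all windows. A match describes letters and not occupancy, and the absence of one speaks only of these windows.

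The libraries differed in ways that touch the results. LC-DTR croton oil samples 2 and 3 stood apart from samples 1 and 4: on the first principal component (50.5% of the variance) they scored 5.26 and 8.06 against 28.5 and 28.6. Values of members are given without samples 2 and 3 where this changes a call or a direction or moves a value by over 1.5 times. Under vehicle the median log2 difference between genotypes over all genes was 0.097 as deposited, 0.0010 after median ratio scaling and -0.014 after quantile normalization. With median ratio scaling the share of higher among called genes went from 78.2% to 54.1% under vehicle, and from 65.6% to 50.1% after croton oil. Of the cells of origin, Cd207, the defining gene of Langerhans cells, lay between 0.057 and 1.88 TPM in all samples, and in bulk tissue fewer cells of a type and less RNA per cell cannot be told apart.

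**Figure D1:**
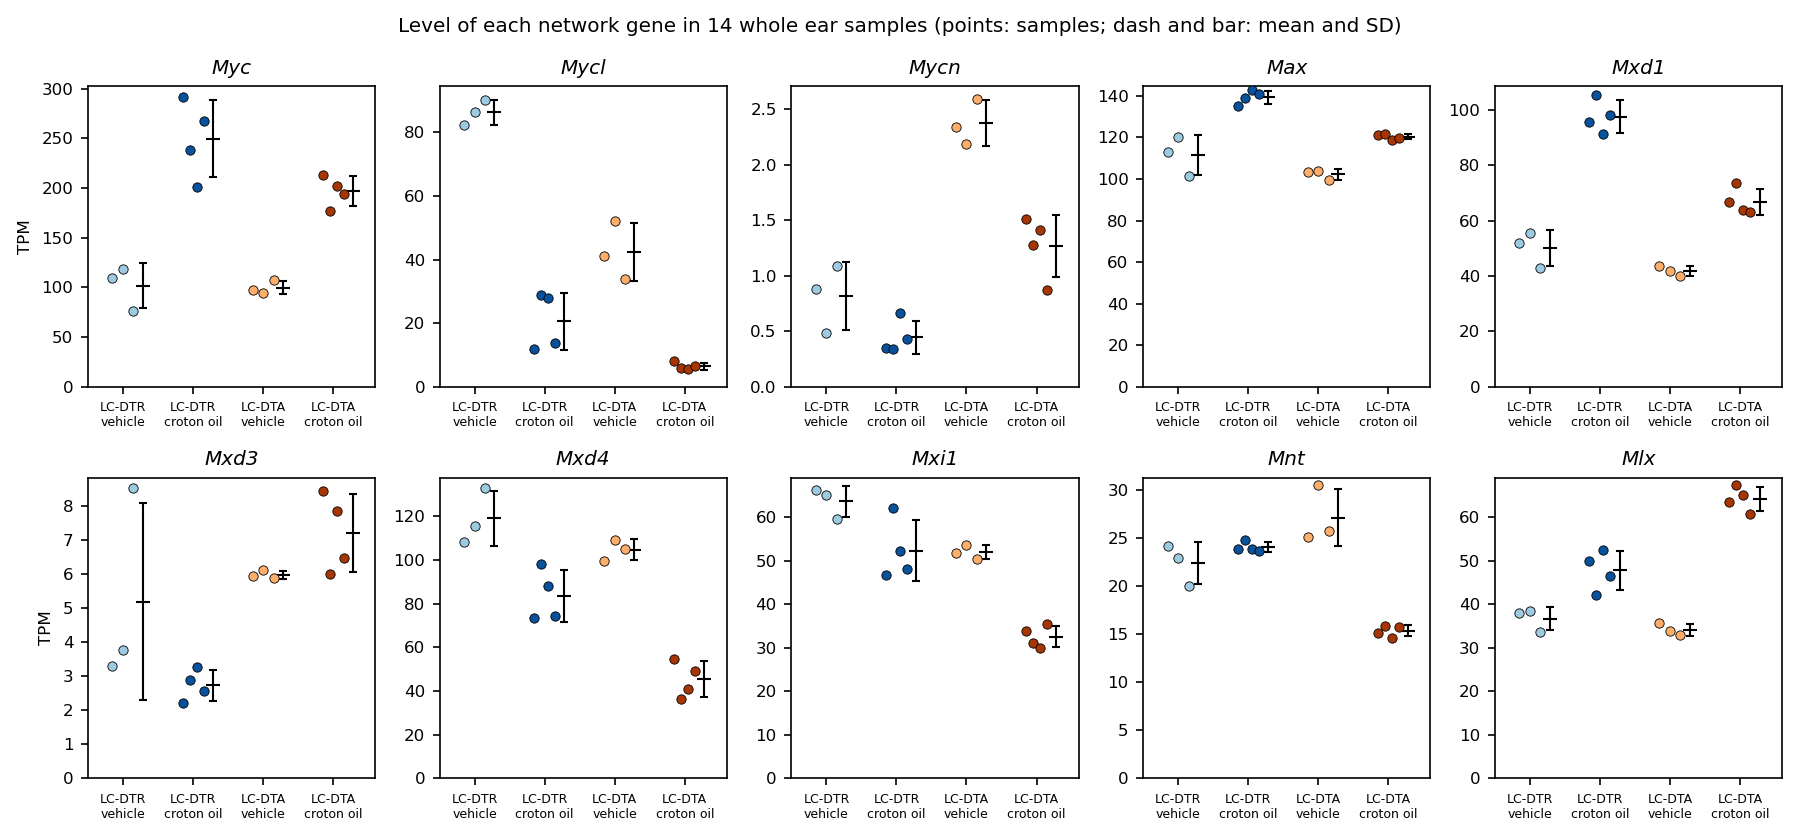
Expression of each member, in TPM on a linear axis from 0, in the 4 groups of whole ear samples. Points are samples, and the dash and bar beside them are the group mean and SD (n = 3 or 4). Mycl is highest in the 3 LC-DTR vehicle samples, from 82.2 to 90.2 TPM, and lowest in the 4 LC-DTA croton oil samples, from 5.48 to 8.03 TPM.

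TPM are divided by gene length, so levels can be set beside each other between genes. In LC-DTR ears under vehicle the members ran in level from Mxd4 at 119 ± 12.6 TPM (SD, n = 3), Max at 112 ± 9.58 and Myc at 102 ± 22.5 through Mycl at 86.3 ± 4.01, Mxi1 at 63.6 ± 3.64, Mxd1 at 50.2 ± 6.42, Mlx at 36.7 ± 2.62 and Mnt at 22.4 ± 2.16 down to Mxd3 at 5.20 ± 2.90 and Mycn at 0.819 ± 0.306. Each of the first 4 overlapped with its neighbours among them in this order. After croton oil in LC-DTA ears the order was Myc at 197 ± 15.1 TPM (SD, n = 4), Max at 120.3 ± 1.27, Mxd1 at 66.8 ± 4.81, Mlx at 64.2 ± 2.78, Mxd4 at 45.4 ± 8.25, Mxi1 at 32.5 ± 2.49, Mnt at 15.4 ± 0.577, Mxd3 at 7.20 ± 1.15, Mycl at 6.49 ± 1.13 and Mycn at 1.27 ± 0.282. Mycl thus stood at place 4 of the 10 in the one group and at place 9 in the other. In the second order, Mxd1 overlapped with Mlx and Mxd3 with Mycl.

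Myc, the broadly expressed activator of growth genes (chr15:61985391-61990374, GRCm38, plus strand), was higher after croton oil in both genotypes. In LC-DTR ears it measured 109.9, 119 and 76.1 TPM under vehicle and 292, 239, 202 and 267 TPM after croton oil. In LC-DTA ears it measured 97.2, 94.7 and 108 TPM under vehicle and 213, 177, 202 and 195 TPM after croton oil. Every croton oil sample exceeded every vehicle sample. On the log2(TPM + 1) scale the difference was 1.30 ± 0.14 (SE) in LC-DTR and 0.97 ± 0.14 in LC-DTA ears. Under vehicle the genotypes lay at a log2 difference of -0.0025 ± 0.15 (LC-DTA minus LC-DTR; limma, adjusted p = 0.993).

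After croton oil Myc was lower in LC-DTA ears by limma, at a log2 difference of -0.33 ± 0.13 (adjusted p = 0.0468), but the samples of the genotypes overlapped. The call was lost in 14 of 26 alternative settings, with adjusted p up to 0.134. Single samples whose omission ended it were, in LC-DTR ears, vehicle 1 and croton oil 1, 2 and 4 and, in LC-DTA ears, vehicle 1, 2 and 3 and croton oil 2, 3 and 4, which left log2 differences between -0.25 and -0.35. Without LC-DTR croton oil samples 2 and 3 the difference was -0.51 and stayed called (limma adjusted p = 0.0135). The response itself differed between genotypes by -0.33 (95% interval -0.76 to 0.10, limma adjusted p = 0.249), and without that pair by -0.50 (adjusted p = 0.0872).

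Mycl, which encodes L-Myc, a Myc protein of more restricted expression known for its part in dendritic cells (chr4:122995652-123002485, plus strand), went the other way. It measured 82.2, 86.5 and 90.2 TPM in LC-DTR ears under vehicle and 12.002, 28.8, 27.8 and 13.8 TPM after croton oil. In LC-DTA ears the values were 41.0, 52.2 and 34.0 TPM under vehicle and 8.03, 5.85, 5.48 and 6.59 TPM after croton oil. No group overlapped with any other. The log2 difference with croton oil was -2.11 ± 0.26 in LC-DTR ears, number 6 from the lowest of 14693 genes, and -2.53 ± 0.26 in LC-DTA ears, number 4 from the lowest. LC-DTR croton oil samples 2 and 3, which stood apart on the first component, were also the higher pair for Mycl, and without them the difference in LC-DTR ears was -2.65.

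Between genotypes Mycl was lower in LC-DTA ears in both treatments. The log2 difference was -1.03 ± 0.27 under vehicle (limma, adjusted p = 0.0152) and -1.44 ± 0.24 after croton oil (adjusted p = 0.000239). The vehicle call was lost without LC-DTR vehicle sample 2 (-1.03, adjusted p = 0.0526) and without LC-DTA vehicle sample 3 (-0.88, adjusted p = 0.0705). The croton oil value shrank to -0.90 without LC-DTR croton oil samples 2 and 3 and stayed called (limma adjusted p = 0.000971). The response to croton oil differed between genotypes by -0.41 (95% interval -1.19 to 0.37, adjusted p = 0.432), and without that pair by 0.13 in the opposite direction (adjusted p = 0.709).

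Markers of dendritic cells were set beside Mycl because of its known part in those cells. The 11 genes of the list summed to 357 ± 44.8 TPM under vehicle and 668 ± 74.8 after croton oil in LC-DTR ears, and to 506 ± 76.1 and 665 ± 70.3 in LC-DTA ears, with Epcam and H2-Ab1 holding most of each sum. Epcam, also an epithelial gene, lay at 221, 531, 214 and 474 TPM in the same order of groups. Its rise with croton oil was about as large as that of the sum in LC-DTR ears, and larger in LC-DTA ears. The more specific Flt3, a growth factor receptor of dendritic cells, lay at 1.58 ± 0.717, 1.23 ± 0.311, 4.74 ± 0.954 and 2.14 ± 0.326 TPM in the same order of groups. Zbtb46, a transcription factor of these cells, lay at 1.45, 2.20, 2.67 and 2.08 TPM, and Xcr1 and Clec9a were under 1 TPM in every group. With croton oil 4 of the 8 markers tested were called higher and none lower in LC-DTR ears (median log2 difference 0.42), beside 22.1% and 29.5% of all genes. In LC-DTA ears 4 were called higher and 3 lower (median 0.25), beside 24.2% and 34.5%. Of the 8 markers tested between genotypes under vehicle, 3 were called higher in LC-DTA ears and none lower, beside 19.1% and 5.34% of all genes. The part of dendritic cells in the values of Mycl was not tested.

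Several marker lists had lower sums after croton oil in both genotypes, as Mycl did, some by less than their SD. These were the hair follicle, T cell, basal and differentiated keratinocyte, mast cell, fibroblast, endothelial, melanocyte and cartilage lists. Values follow for the hair follicle, T cell and basal keratinocyte lists. The 10 genes of the hair follicle summed to 49.9 ± 11.2 and 47.0 ± 6.72 TPM in LC-DTR and LC-DTA vehicle samples and to 20.2 ± 2.57 and 15.99 ± 2.35 TPM after croton oil. Of the 8 tested, 6 were called lower with croton oil in LC-DTR ears and 5 in LC-DTA ears. Of all genes 22.1% were called higher and 29.5% lower in LC-DTR ears, and 24.2% and 34.5% in LC-DTA ears. The 5 T cell genes summed to 49.98 ± 9.30 TPM under vehicle and 31.5 ± 3.33 after croton oil in LC-DTR ears, and to 42.0 ± 1.82 and 29.2 ± 3.14 in LC-DTA ears, with 3 of the 4 tested called lower in each. The 8 basal keratinocyte genes summed to 15474 ± 1026 and 8854 ± 1109 TPM in LC-DTR ears and to 14121 ± 52.5 and 12134 ± 907 TPM in LC-DTA ears, vehicle first, with 5 and 4 called lower and 2 and 3 called higher. The part of these cells in the values of Mycl was not tested.

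Mycn, best known from embryonic tissue and neural tumours (chr12:12936093-12941914, minus strand), was the scarcest member. LC-DTR ears held 0.877, 0.488 and 1.09 TPM under vehicle and 0.350, 0.338, 0.662 and 0.434 TPM after croton oil. LC-DTA ears held 2.34, 2.18 and 2.60 TPM under vehicle and 1.51, 1.28, 1.41 and 0.870 TPM after croton oil. The LC-DTA samples lay above the LC-DTR samples of the same treatment without overlap. Since Mycn passed the filter through the LC-DTA samples, its test between genotypes is given from the fit without a filter. There the log2 difference was 0.90 under vehicle (limma, adjusted p = 0.00194) and 0.65 after croton oil (adjusted p = 0.00098). In that fit the log2 difference with croton oil was -0.58 ± 0.13 in LC-DTA ears, called lower, and -0.32 ± 0.13 in LC-DTR ears, not called. These values are description, and the responses differed by -0.26 (limma, adjusted p = 0.378). At these levels the size depends on the pseudocount. With 0.1 in place of 1 the genotypes differed by 1.485 under vehicle and 1.34 after croton oil, and with 5 by 0.34 and 0.20. The value in LC-DTR ears was -0.73 with 0.1, where it was called, as it also was at -0.46 without LC-DTR vehicle sample 2, at -0.39 without LC-DTR croton oil sample 3 and at -0.32 without LC-DTA croton oil sample 4. It was called as well after quantile normalization and without a mean-variance trend. The fits with another pseudocount, scaling, trend or set of samples all kept the filter of 1 TPM, which Mycn passed through the LC-DTA samples. Nothing is read from their calls of Mycn. The levels of fibroblast markers were also higher in LC-DTA ears. Their 7 genes summed to 3544 ± 1485 and 2921 ± 488 TPM in LC-DTR and 8102 ± 1008 and 5278 ± 775 TPM in LC-DTA samples, vehicle first. This was not particular to fibroblasts. Mast cell, macrophage and melanocyte sums were higher there in both treatments, and dendritic cell, endothelial and cartilage sums under vehicle. The part of any of these cells in the value of Mycn was not tested.

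**Figure D2:**
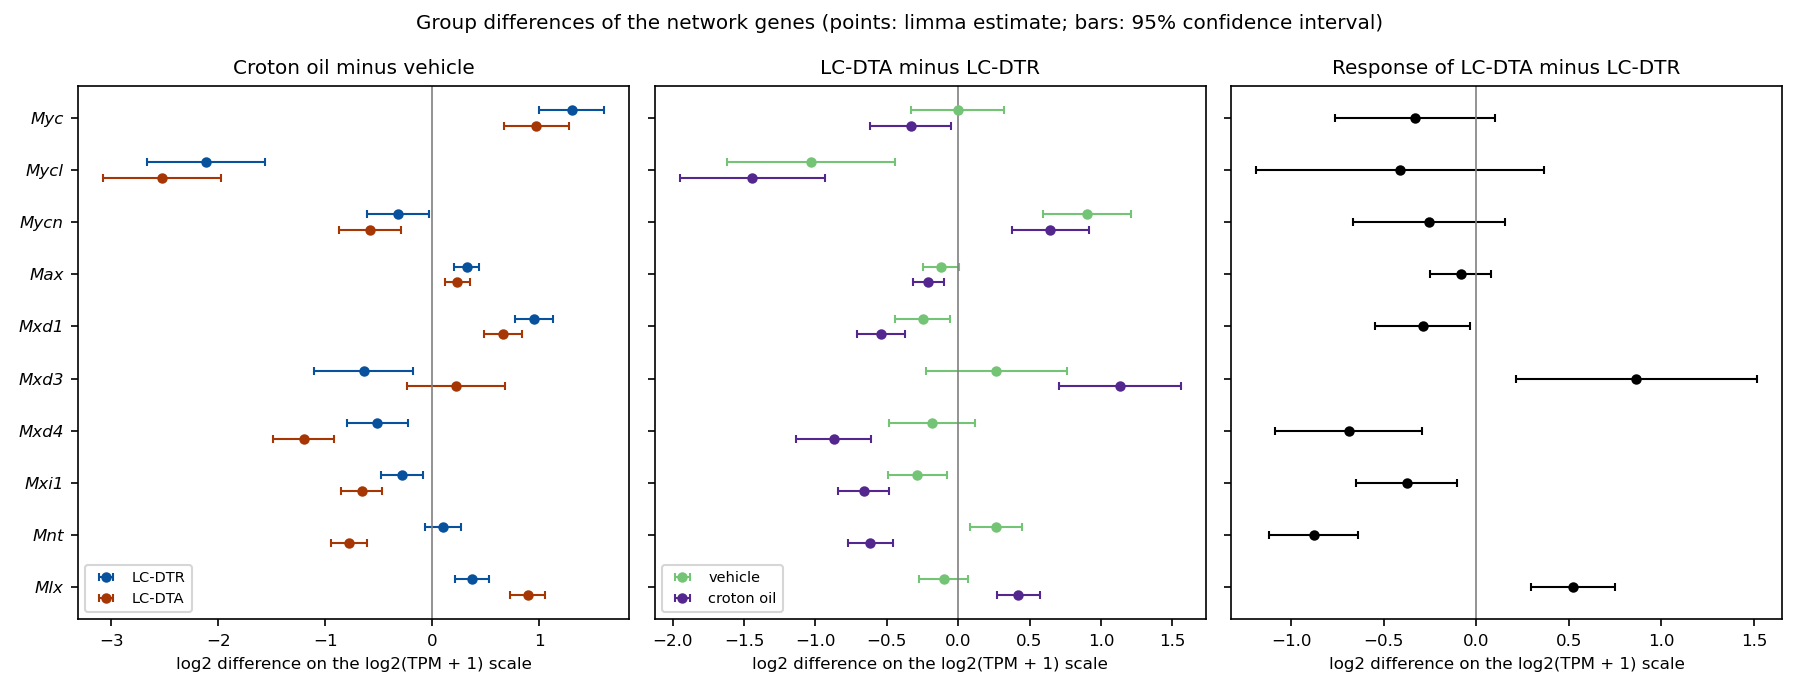
Group differences of the 10 members on the log2(TPM + 1) scale, with points at the limma estimate and bars at its 95% confidence interval, for croton oil minus vehicle (left), LC-DTA minus LC-DTR (middle) and the response of LC-DTA minus that of LC-DTR (right). Mycl lies furthest to the left in both croton oil comparisons. In the right panel the intervals, which are not adjusted, are clear of 0 for 6 members, of which Mxd4, Mxi1, Mnt and Mlx were called after adjustment.

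Max, the shared partner (chr12:76937269-76962201, minus strand), varied least. It measured 113, 120.3 and 101 TPM in LC-DTR vehicle and 135, 139, 143 and 141 TPM in LC-DTR croton oil samples. It measured 103, 104 and 99.3 TPM in LC-DTA vehicle and 121, 122, 119 and 119.7 TPM in LC-DTA croton oil samples. The croton oil samples lay above the vehicle samples of their genotype, by 0.32 ± 0.055 on the log2 scale in LC-DTR and 0.23 ± 0.055 in LC-DTA ears. Between genotypes the log2 difference was -0.12 under vehicle (limma, adjusted p = 0.144) and -0.21 ± 0.051 after croton oil (adjusted p = 0.00372). Under vehicle it was called without LC-DTR vehicle sample 3, at -0.19 (adjusted p = 0.0193), and after median ratio scaling, at -0.23 (adjusted p = 0.0234). The response differed between genotypes by -0.086 (95% interval -0.25 to 0.081, adjusted p = 0.447).

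Among the repressor partners of Max, Mxd1 was the member that rose. Mxd1 (chr6:86647042-86669161, minus strand), a repressor found in cells that stop dividing, measured 51.9, 55.6 and 43.1 TPM in LC-DTR vehicle and 95.5, 105, 91.2 and 98.0 TPM in LC-DTR croton oil samples. In LC-DTA ears it measured 43.6, 41.9 and 40.1 TPM under vehicle and 66.6, 73.6, 63.9 and 63.0 TPM after croton oil. The treatment groups were far apart in both genotypes, with log2 differences of 0.95 ± 0.084 and 0.66 ± 0.084. After croton oil LC-DTA ears were lower, with no overlap and a log2 difference of -0.54 ± 0.078 (limma, adjusted p = 8.63e-05). Under vehicle the log2 difference was -0.25 (adjusted p = 0.0580), which passed the threshold at -0.35 after median ratio scaling (adjusted p = 0.0179) and at -0.35 without LC-DTR vehicle sample 3 (adjusted p = 0.00720). The difference of the responses was -0.29 (95% interval -0.55 to -0.036, unadjusted; limma adjusted p = 0.0916), and without LC-DTR vehicle sample 2 it was called at -0.37 (adjusted p = 0.0438).

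Mxd4 (chr5:34173883-34187720, minus strand), another repressor of the Mxd family and the most abundant of them under vehicle, was lower after croton oil. In LC-DTR ears its values were 108, 116 and 133 TPM under vehicle and 73.3, 98.2, 87.9 and 74.5 TPM after croton oil. In LC-DTA ears they were 99.7, 109 and 105 TPM under vehicle and 54.8, 36.4, 41.0 and 49.3 TPM after croton oil. No vehicle sample overlapped with a croton oil sample of its genotype. The log2 difference with croton oil was -0.51 ± 0.13 in LC-DTR and -1.20 ± 0.13 in LC-DTA ears. The decrease was larger in LC-DTA ears, with a difference of the responses of -0.69 ± 0.19 (limma, adjusted p = 0.0178). Without LC-DTR croton oil samples 2 and 3 this difference was -0.53 and not called (adjusted p = 0.0618). Under vehicle the genotypes differed by -0.18 (adjusted p = 0.376), and after croton oil by -0.87 ± 0.12 (adjusted p = 7.08e-05). In GENCODE M21 Mxd4 shares 514 exon bases with Gm42846 on the other strand, a gene with no deposited value. The part of that overlap in the value of Mxd4 was not tested.

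Mxi1, also called Mxd2 (chr19:53310518-53375810, plus strand), measured 66.3, 65.0 and 59.4 TPM in LC-DTR vehicle and 46.7, 62.1, 52.2 and 48.1 TPM in LC-DTR croton oil samples, where 1 croton oil sample lay within the vehicle range. In LC-DTA ears it measured 51.6, 53.6 and 50.5 TPM under vehicle and 33.8, 31.0, 29.98 and 35.4 TPM after croton oil, without overlap. The log2 differences with croton oil were -0.28 ± 0.090 and -0.66 ± 0.090. The first was no longer called without LC-DTR vehicle sample 1 (-0.25) or 2 (-0.27), or without LC-DTR croton oil sample 1 (-0.23) or 4 (-0.25).

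After croton oil Mxi1 was lower in LC-DTA ears, at a log2 difference of -0.66 ± 0.083 (limma, adjusted p = 3.28e-05), a call that held in all 26 settings tried. Under vehicle it was lower at -0.29 ± 0.096 (adjusted p = 0.0437), and this call was lost in 11 of 26 settings, among them the omission of LC-DTR vehicle 1 or 2, LC-DTR croton oil 3, LC-DTA vehicle 1, 2 or 3 or LC-DTA croton oil 2, with values of -0.26 to -0.31 and adjusted p up to 0.132. The difference of the responses was -0.38 ± 0.13 (adjusted p = 0.0467). It was lost in 17 of 25 settings with adjusted p up to 0.106, and without LC-DTR croton oil samples 2 and 3 it was -0.25. Among single samples, the omission of LC-DTR vehicle 2 or 3, LC-DTR croton oil 2 or 3, any LC-DTA vehicle sample or LC-DTA croton oil 1, 2 or 3 ended it, with values of -0.29 to -0.40. Mxi1 shares 194 exon bases with Gm10197 on the other strand in GENCODE M21, a gene with no deposited value. The part of that overlap in the value of Mxi1 was not tested.

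Mnt (chr11:74830920-74845725, plus strand), the widely expressed repressor that pairs with Max or Mlx, had treatment groups that overlapped in LC-DTR ears and lay apart in LC-DTA ears. LC-DTR samples measured 24.2, 23.0 and 20.0 TPM under vehicle and 23.9, 24.8, 23.8 and 23.7 TPM after croton oil, with overlap. LC-DTA samples measured 25.1, 30.5 and 25.7 TPM under vehicle and 15.2, 15.9, 14.6 and 15.8 TPM after croton oil, far apart. The log2 differences were 0.10 ± 0.078, not called, and -0.78 ± 0.078. The responses themselves differed by -0.88 ± 0.11 (limma, adjusted p = 0.000333), and this held in all 25 settings tried.

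Between genotypes Mnt changed sign. After croton oil it was lower in LC-DTA ears, at a log2 difference of -0.61 ± 0.073 (limma, adjusted p = 2.19e-05). Under vehicle it was higher in LC-DTA ears by 0.27 ± 0.084 (adjusted p = 0.0340), a call lost after median ratio scaling (0.16, adjusted p = 0.139) and quantile normalization (0.17, adjusted p = 0.121). It was also lost without LC-DTR vehicle sample 2 (0.29) or 3 (0.19) and without LC-DTA vehicle sample 2 (0.18) or 3 (0.30).

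Mxd3 (chr13:55325168-55329823, minus strand), the Mxd gene known for expression in dividing cells, was low throughout. LC-DTR ears held 3.30, 3.77 and 8.53 TPM under vehicle and 2.22, 2.90, 3.27 and 2.56 TPM after croton oil. LC-DTA ears held 5.95, 6.13 and 5.88 TPM under vehicle and 8.45, 6.01, 7.87 and 6.49 TPM after croton oil. LC-DTR vehicle sample 3 stood above the other 2 of its group. With croton oil the log2 difference was -0.64 ± 0.21 in LC-DTR ears, which was -0.28 and not called without that sample, and -0.57 and not called without LC-DTR croton oil sample 1. In LC-DTA ears it was 0.22 ± 0.21, not called. After croton oil all 4 LC-DTA samples lay above all 4 LC-DTR samples, with a log2 difference of 1.13 ± 0.20 (limma, adjusted p = 0.000382).

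Under vehicle the genotypes differed in Mxd3 by 0.27 (adjusted p = 0.424), and without LC-DTR vehicle sample 3 by 0.62 (adjusted p = 0.00759). The difference of the responses was 0.86 ± 0.30 (adjusted p = 0.0545), and it passed the threshold without LC-DTR vehicle sample 1 (1.08, adjusted p = 0.0186) or 2 (1.00, adjusted p = 0.0420). Markers of dividing cells were set beside Mxd3. Their 8 genes summed to 283 ± 52.8 TPM under vehicle and 242 ± 16.3 after croton oil in LC-DTR ears, and to 283 ± 12.8 and 421 ± 25.1 in LC-DTA ears. With croton oil 1 of the 8 was called higher and 6 lower in LC-DTR ears, beside 22.1% and 29.5% of all genes. In LC-DTA ears, where Mxd3 was not called, 5 were higher and none lower, beside 24.2% and 34.5%. Between genotypes after croton oil 7 of the 8 were called higher in LC-DTA ears, where 34.3% of all genes were. Their part in the value of Mxd3 was not tested. Mxd3 shares 105 exon bases with Prelid1 on the other strand in GENCODE M21, and no source used here says whether reads were counted by strand. The group means of Prelid1 lay between 221 and 237 TPM.

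Mlx, the second hub (chr11:101087277-101092207, plus strand), rose with croton oil and more so in LC-DTA ears. LC-DTR samples measured 38.0, 38.5 and 33.7 TPM under vehicle and 49.995, 42.2, 52.6 and 46.5 TPM after croton oil. LC-DTA samples measured 35.7, 33.8 and 32.9 TPM under vehicle and 63.5, 67.5, 65.1 and 60.8 TPM after croton oil. The treatments did not overlap in either genotype. The log2 differences were 0.37 ± 0.075 and 0.89 ± 0.075, and the responses differed by 0.52 ± 0.11 (limma, adjusted p = 0.00448). After croton oil LC-DTA ears were higher by 0.42 ± 0.070 (adjusted p = 0.000252), while under vehicle the log2 difference was -0.10 (adjusted p = 0.387). Mlx shares 385 exon bases with Psmc3ip on the other strand, which lay at 9.01 ± 1.19 and 5.34 ± 0.688 TPM in LC-DTR ears and at 14.7 ± 8.78 and 23.1 ± 7.60 TPM in LC-DTA ears, vehicle first. The part of that overlap in the value of Mlx was not tested.

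Counted over the members, croton oil in LC-DTR ears gave 4 higher, 4 lower and 2 not called, in a comparison that called 22.1% of 14693 genes higher and 29.5% lower. In LC-DTA ears it gave 4 higher, 5 lower and 1 not called, against 24.2% and 34.5% of all genes. Since earlier results of these comparisons were known when the set was chosen, nothing is read from these counts. The median log2 difference of the members was -0.091 in LC-DTR and -0.18 in LC-DTA ears, beside -0.060 and -0.090 over all genes.

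Between genotypes under vehicle 2 members were higher in LC-DTA ears (Mnt, and Mycn, which had passed the filter there), 2 lower (Mycl and Mxi1) and 6 not called, where 19.1% of all genes were called higher and 5.34% lower. After croton oil 3 were higher (Mycn, Mxd3 and Mlx), 7 lower and 0 not called, where 34.3% were called higher and 18.0% lower. The samples of the genotypes overlapped for Myc in that comparison, and overlap was not counted over all genes. The members' median log2 difference was -0.44 after croton oil, where that of all genes was 0.093. For the difference of the responses 1 member was higher (Mlx), 3 lower (Mxd4, Mxi1 and Mnt) and 6 not called, where 10.5% of all genes were called higher and 12.6% lower. The members' median was -0.31, that of all genes -0.021. Of 50 values of members and comparisons, 27 were called and stayed so under every alternative tried. The 50 include the croton oil comparisons known when the set was chosen, so nothing is read from that total. No such total was made over all genes.

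**Figure D3:**
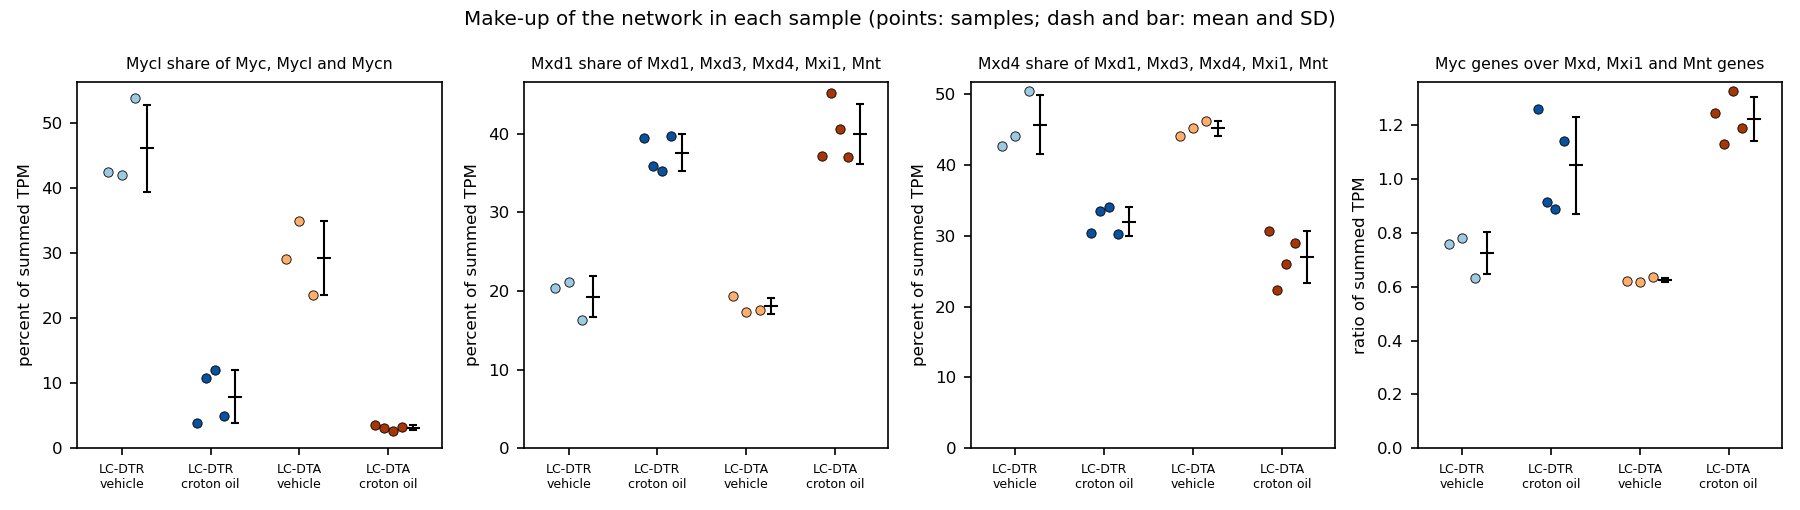
Make-up of the network in each sample from summed TPM: share of Mycl in the 3 Myc genes, shares of Mxd1 and Mxd4 in the 5 repressor genes, and the ratio of Myc genes to repressor genes, on linear axes from 0. Points are samples, and the dash and bar are mean and SD. The share of Mycl drops from 46.2% and 29.3% under vehicle to 7.92% and 3.17% after croton oil.

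Summed levels show how the make-up of the network shifted. These sums are given as description, with no test. Mycl made up 46.2 ± 6.68% of the summed TPM of Myc, Mycl and Mycn in LC-DTR vehicle samples and 29.3 ± 5.74% in LC-DTA vehicle samples (SD, n = 3 each). After croton oil it made up 7.92 ± 4.09% and 3.17 ± 0.406% (SD, n = 4 each). Myc accounted for nearly all of the rest, at 91.9 ± 4.15% and 96.2 ± 0.408% after croton oil. The 3 genes together summed to 189 ± 19.5 TPM under vehicle and 271 ± 31.2 after croton oil in LC-DTR ears, and to 145 ± 4.31 and 205 ± 15.9 in LC-DTA ears. The sums of the treatments did not overlap in either genotype.

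The 5 repressor genes Mxd1, Mxd3, Mxd4, Mxi1 and Mnt summed to 260.4 ± 5.54 TPM under vehicle and 260.0 ± 23.3 after croton oil in LC-DTR ears, while the shares inside that sum shifted. Mxd1 went from 19.3 ± 2.60% to 37.6 ± 2.33% of that sum, and Mxd4 from 45.7 ± 4.11% to 32.0 ± 2.02%. In LC-DTA ears the sum was 232 ± 8.59 TPM under vehicle and 167 ± 9.28 TPM after croton oil, while the share of Mxd1 went from 18.1 ± 1.06% to 40.0 ± 3.81%. The ratio of Myc genes to repressor genes was 0.725 ± 0.0798 under vehicle and 1.05 ± 0.180 after croton oil in LC-DTR ears, and 0.625 ± 0.00878 and 1.22 ± 0.0832 in LC-DTA ears. It was above every vehicle value in all 8 croton oil samples, and the croton oil samples of the genotypes overlapped. LC-DTR croton oil samples 2 and 3 had the lowest ratios after croton oil, 0.913 and 0.890.

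Mlxip, Mlxipl and Mga are the remaining partners of Mlx and Max. Mlxip, known as MondoA, is a glucose-sensing activator. Its level was 16.6 ± 2.23 TPM under vehicle and 22.0 ± 2.11 after croton oil in LC-DTR ears, and 23.1 ± 2.42 and 13.9 ± 1.01 in LC-DTA ears. It rose with croton oil in LC-DTR ears (0.39 ± 0.10) and fell in LC-DTA ears (-0.69 ± 0.10), and the responses differed by -1.08 (limma, adjusted p = 0.000489). Mga, a Max partner that represses through polycomb-type complexes, rose in both, by 0.30 and 0.42. Mlxipl fell in LC-DTA ears by 0.59 on the log2 scale and stood at -0.24 in LC-DTR ears, not called.

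Targets of Mlx with its glucose-sensing partners did not share 1 direction. Of 8 tested of 9, croton oil called 1 higher and 4 lower in LC-DTR ears and 1 higher and 2 lower in LC-DTA ears, with medians of -0.49 and -0.076, where 22.1% of all genes were higher and 29.5% lower, and 24.2% and 34.5%. Txnip, the redox protein most tightly linked to Mlxip, measured 513 ± 151 TPM under vehicle and 722 ± 270 after croton oil in LC-DTR ears, and 387 ± 105 and 129 ± 6.65 in LC-DTA ears. It fell by 1.55 on the log2 scale in LC-DTA ears and stood at 0.45 in LC-DTR ears, not called, and the responses differed by -2.004 (limma, adjusted p = 0.00278). Arrdc4, an arrestin-like gene of the same kind, rose by 0.37 and 0.22. The lipid synthesis genes Acaca and Acly fell in LC-DTR ears (-0.54 and -0.53) and were not called in LC-DTA ears (0.028 and 0.18), with response differences of 0.57 and 0.71 (adjusted p = 0.00309 and 0.00355). Thrsp, another lipid synthesis gene, fell in both, by 1.21 and 1.497 on the log2 scale.

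**Figure D4:**
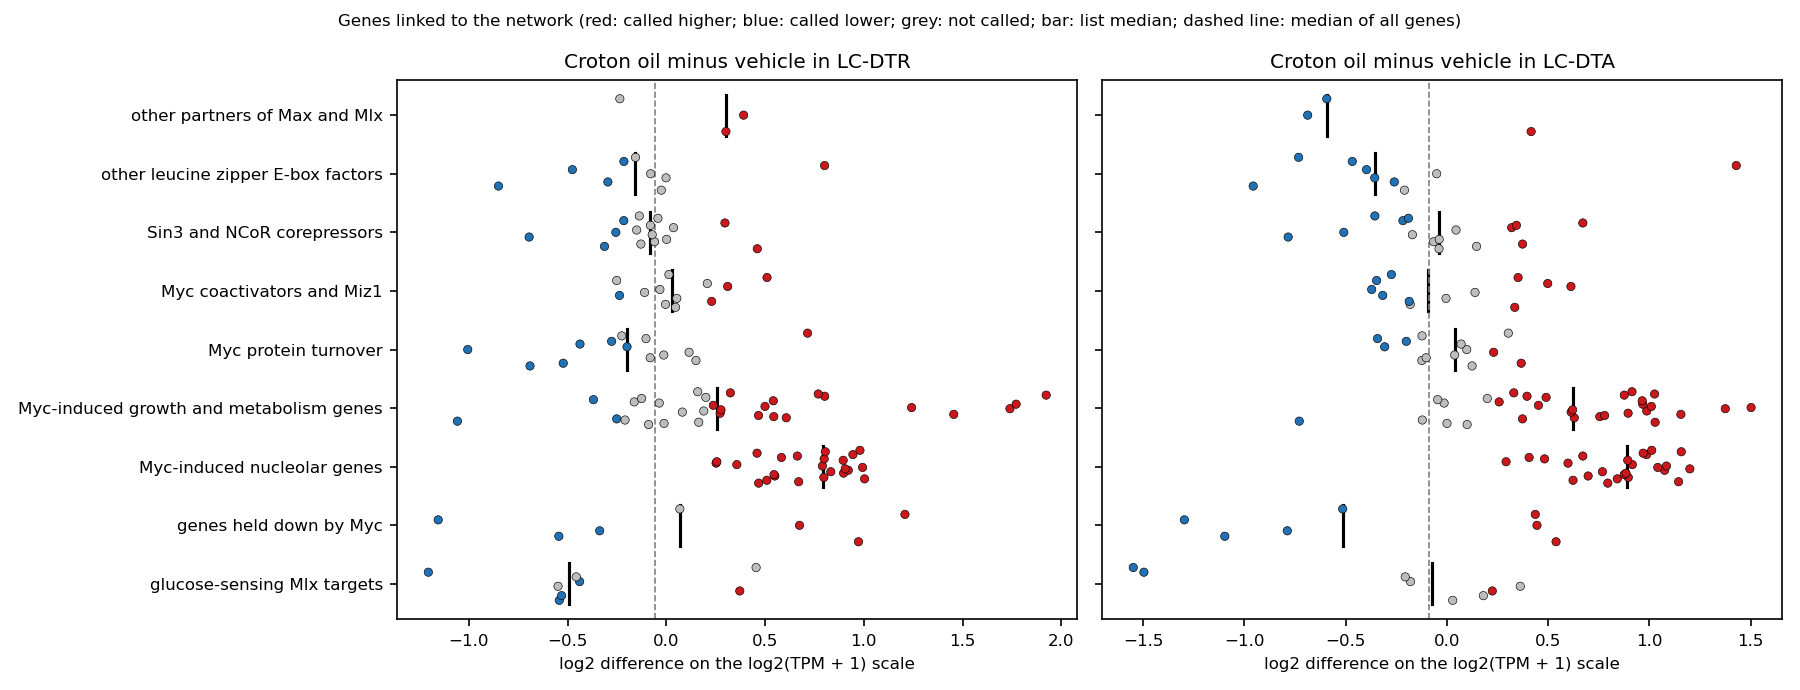
Log2 differences with croton oil, on the log2(TPM + 1) scale, of the genes of 9 lists linked to the network, in LC-DTR ears (left) and LC-DTA ears (right). Each point is a gene, red where called higher, blue where called lower and grey where not called. The black bar is the list median and the dashed line the median of all genes. All 24 nucleolar genes lie to the right of 0 and are called higher in both genotypes.

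Genes that Myc is known to induce were counted in a nucleolar and a metabolic list. All 24 nucleolar genes, which build ribosomes, were called higher with croton oil in both genotypes, where 22.1% of all genes were in LC-DTR and 24.2% in LC-DTA ears, with a median log2 difference of 0.79 in LC-DTR and 0.89 in LC-DTA ears. In LC-DTA ears the count was 24 in every alternative tried, and in LC-DTR ears the lowest was 22, without LC-DTR vehicle sample 3. Wdr43, a factor of early ribosome assembly, rose by 0.98 ± 0.12 and 1.01 ± 0.12, and Nop58, a core protein of small nucleolar particles, by 0.79 ± 0.099 and 1.08 ± 0.099. Npm1, the nucleolar chaperone nucleophosmin, rose by 0.36 ± 0.078 and 0.92 ± 0.078, and this response differed between genotypes by 0.56 (limma, adjusted p = 0.00382). Dkc1, which modifies ribosomal RNA, rose by 0.67 and 1.14, with a response difference of 0.47 (adjusted p = 0.0278).

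After croton oil 18 of the 24 nucleolar genes were higher in LC-DTA ears and none lower, with a median of 0.35, where 34.3% of all genes were called higher. The count was 8 without LC-DTR croton oil samples 2 and 3 and 9 without LC-DTA croton oil samples 3 and 4. Under vehicle 5 were called higher, a share near the 19.1% of all genes, which became 1 after median ratio scaling and 1 or 2 without LC-DTR vehicle sample 2 or 3 or any LC-DTA vehicle sample. Rcl1, an RNA processing factor, was among the 5, at 0.38 (limma, adjusted p = 0.00206). For the difference of the responses 3 were higher and none lower, a share near the 10.5% of all genes called higher. Only 1 was higher without LC-DTR vehicle sample 1 or 2, LC-DTA vehicle sample 2 or LC-DTA croton oil sample 3. Without LC-DTR croton oil samples 2 and 3 the count was 1 higher and 2 lower.

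Of 30 growth and metabolism genes, croton oil called 16 higher and 3 lower in LC-DTR ears (median 0.26) and 23 higher and 1 lower in LC-DTA ears (median 0.62), beside the same shares of all genes called higher. Odc1, which starts polyamine synthesis, rose by 1.77 ± 0.18 and 0.97 ± 0.18, and Slc7a5, an amino acid transporter, by 1.92 ± 0.15 and 0.88 ± 0.15. Both responses were smaller in LC-DTA ears, by -0.80 (limma, adjusted p = 0.0322) and -1.05 (adjusted p = 0.00457). Mat2a, which makes S-adenosylmethionine, rose by 1.74 and 1.38, and Hk2, a hexokinase, by 1.46 and 1.16.

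Others of the list responded more in LC-DTA ears. Impdh2, of guanine nucleotide synthesis, stood at 0.19 in LC-DTR ears, not called, and rose by 0.99 in LC-DTA ears, a difference of 0.80 (limma, adjusted p = 0.00139). Hspd1, a mitochondrial chaperone, rose by 0.27 and 0.89, a difference of 0.62 (adjusted p = 0.00179). The cell cycle kinase gene Cdk4 fell by 0.25 in LC-DTR ears and rose by 0.37 in LC-DTA ears. Ccnd2, a cyclin of the same step, went against its list, with -1.06 and -0.73. Ptma, of chromatin, fell by 0.37 in LC-DTR ears and stood at -0.046 in LC-DTA ears, not called. Between genotypes after croton oil 21 of the 30 were higher and 2 lower in LC-DTA ears, and 13 were higher without LC-DTA croton oil samples 3 and 4, where 34.3% of all genes were called higher in the fit of all samples.

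Of 7 genes that Myc is known to hold down, croton oil called 3 higher and 3 lower in LC-DTR ears and 3 higher and 4 lower in LC-DTA ears. Of all genes 22.1% were called higher and 29.5% lower in LC-DTR ears, and 24.2% and 34.5% in LC-DTA ears. The cell cycle inhibitor gene Cdkn1a rose by 0.97 and 0.54, and Ndrg1, a stress gene of differentiating cells, by 1.21 and 0.44. The inhibitor genes Cdkn1b (-0.54 and -1.10) and Cdkn2b (-0.34 and -0.79) and the growth arrest gene Gas1 (-1.16 and -1.30) fell in both. After croton oil 5 of the 7 were lower in LC-DTA than in LC-DTR ears and none higher. Of all genes 18.0% were called lower and 34.3% higher in that comparison. Without LC-DTR croton oil samples 2 and 3, 1 of the 7 was higher. For the difference of the responses 5 were lower, where 12.6% of all genes were. That count went as low as 1, without LC-DTR vehicle sample 3, and was 2 without LC-DTR croton oil samples 2 and 3. It was 2 or 3 without LC-DTR vehicle 2, LC-DTR croton oil 2 or 3, any LC-DTA vehicle sample or LC-DTA croton oil 2, 3 or 4.

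Beside the counts of cofactors, 22.1% of all genes were called higher and 29.5% lower in LC-DTR ears, and 24.2% and 34.5% in LC-DTA ears. Of 15 genes of the Sin3 and NCoR complexes, through which the Mxd proteins and Mnt repress, 2 were called higher and 4 lower with croton oil in LC-DTR ears and 4 higher and 5 lower in LC-DTA ears. The 4 became 8 after quantile normalization, and the 5 became 3 after median ratio scaling. Ing2, a chromatin reader of the Sin3 complex, fell in both (-0.69 and -0.78). The deacetylase gene Hdac2 stood at -0.13 in LC-DTR ears, not called, and rose by 0.37 in LC-DTA ears, and Hdac1 fell by 0.31 in LC-DTR ears and stood at 0.15 in LC-DTA ears, not called. Of 12 coactivator genes with Zbtb17, which encodes Miz1, 3 were higher and 1 lower in LC-DTR and 4 higher and 5 lower in LC-DTA ears, the 5 becoming 3 without LC-DTA vehicle sample 2. Wdr5, which brings Myc to chromatin, rose by 0.51 and 0.35, and Ruvbl1, a helicase of the same complexes, by 0.31 and 0.61.

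Of 13 genes that govern the stability of Myc protein, 1 was higher and 6 lower in LC-DTR ears and 2 higher and 3 lower in LC-DTA ears, beside 22.1% and 29.5% of all genes in LC-DTR and 24.2% and 34.5% in LC-DTA ears. The 1 became 3 after median ratio scaling. Plk1, a mitotic kinase, fell by 1.01 in LC-DTR ears and stood at 0.098 in LC-DTA ears, not called, and Skp2, a ubiquitin ligase subunit, fell by 0.44 and stood at 0.070, not called. Both are also genes of dividing cells. Usp36, a nucleolar enzyme that removes ubiquitin, rose by 0.72 in LC-DTR ears and stood at 0.30 in LC-DTA ears, not called. The amount of Myc protein was not measured here.

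Of 9 other leucine zipper factors that read E-boxes, 1 was higher and 4 lower with croton oil in LC-DTR ears, and 1 higher and 6 lower in LC-DTA ears, where the shares of all genes were 22.1% higher and 29.5% lower, and 24.2% and 34.5%. Srebf1, of lipid synthesis, fell by 0.85 and 0.96. Usf2, a broadly expressed factor, fell by 0.73 in LC-DTA ears and stood at -0.16 in LC-DTR ears, not called, a response difference of -0.58 (limma, adjusted p = 0.00232). Tfec, of macrophages, went against the list with 0.80 and 1.43. The 8 macrophage markers summed to 136 ± 24.5 and 163 ± 24.5 TPM in LC-DTR and 256 ± 34.0 and 372 ± 46.0 TPM in LC-DTA samples, vehicle first, and the part of these cells in the value of Tfec was not tested.

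The genes most like Myc and Mycl over the 14 samples were found by the root mean square difference of log2(TPM + 1) after centring each gene. Closest to Myc were Ptk2b (0.144), Map2k3 (0.145), Dusp5 (0.152), Epcam (0.155) and Ier2 (0.156), where the median over all genes was 0.686. Since these genes were chosen for likeness over the same samples, their group means follow those of Myc by construction. Map2k3, a kinase of the stress pathway, lay at 182 TPM under vehicle and 424 after croton oil in LC-DTR ears, and at 196 and 365 TPM in LC-DTA ears. Ier2, an immediate early gene, lay at 136, 316, 128 and 284 TPM in the same order. Closest to Mycl were Art4 (0.453), Megf6 (0.466), Adh7 (0.470), Ascl2 (0.479) and Dok4 (0.498), with a median over all genes of 1.36. Dok4, an adaptor protein, lay at 56.3, 14.99, 25.1 and 8.59 TPM, and Ascl2, a helix-loop-helix factor, at 13.9, 3.82, 8.18 and 1.80 TPM.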

How the data were processed

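The authors deposited gene expression as TPM, 1 value for each gene and sample, and the processing notes of the submitters list, with no order, cutadapt, HISAT2, Subread, featureCounts and mm10. No source used here gives the annotation, the strand of counting or the step from reads to TPM. Libraries were made with a stranded mRNA kit, per the labels. TPM keep no depth, so no counting intervals are given. Of 24062 rows, 27 named as dates were left out (0.124 to 0.145% of TPM). On the scale of log2(TPM + 1), limma 3.58.1 (R 4.3.3) was given 1 model of 4 group means for the 14 samples, with a mean-variance trend. The 14693 genes with at least 1 TPM in at least 3 samples were tested, 2-sided, and called at a Benjamini-Hochberg adjusted p under 0.05 over all genes of a comparison. The fit was tested on simulated data. Python 3.11.15 with pandas 2.3.3 and matplotlib 3.10.9 served for tables and plots.

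Members and lists were chosen with earlier results of these data known. Named were all members, the 5 genes most like Myc and Mycl (predicted genes passed over), and from each pathway list up to 4 genes of lowest p in a comparison or any moving against its list, and the text uses some of these, while some results are left out here. Cd207, Flt3, Zbtb46, Xcr1, Clec9a, Epcam and H2-Ab1 were named as markers after their values were seen. Of 235 list entries 231 were found, 3 of them under an older symbol. Gene positions are from GENCODE M21 on GRCm38, which was not stated to be the annotation behind the values. The alternatives tried were a pseudocount of 0.1 or 5, a filter of 5 TPM or none, median ratio scaling, quantile normalization, no trend, robust estimation, a replicate block, only the compared groups, LC-DTR croton oil samples 2 and 3 or LC-DTA croton oil samples 3 and 4 left out, and each sample left out.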

Additional observations from a re-analysis of the deposited data

Results flagged for a closer look

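Several of the genes named had a response to croton oil that differed between the genotypes by limma's interaction contrast at an adjusted p under 0.05, given here as the log2 response of LC-DTA minus that of LC-DTR. Among the members these were Mnt (-0.88), Mxd4 (-0.69), Mxi1 (-0.38) and Mlx (0.52). Of the partner and E-box factors they were Mlxip (-1.08) and Usf2 (-0.58). Of the metabolic targets Slc7a5 (-1.05) and Odc1 (-0.80) had the smaller response in LC-DTA ears, whereas Impdh2 (0.80), Hspd1 (0.62), Cdk4 (0.62) and Ptma (0.32) lay the other way, as did the nucleolar Npm1 (0.56) and Dkc1 (0.47). Among the Mlx targets were Txnip (-2.004), Acly (0.71) and Acaca (0.57). Of the genes held down by Myc, Ndrg1 (-0.77), Cdkn1b (-0.55), Cdkn2b (-0.45) and Cdkn1a (-0.43) all had the lower value in LC-DTA ears. Cofactor genes were Brms1 (-0.50), Hdac1 (0.46) and Hdac2 (0.50), and genes of Myc protein turnover were Plk1 (1.10) and Skp2 (0.51). In all, 10.5% of genes tested were called higher and 12.6% lower in this contrast.

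A single sample stood far from the others of its group in 2 of the 40 groups of 4 tested, where chance flags about 1 in 20. For Mnt in LC-DTR croton oil samples, sample 2 at 24.8 TPM was apart by 0.844 of the range, although that range ran only from 23.7 to 24.8 TPM. For the share of Mycn in the Myc genes of LC-DTA croton oil samples, sample 4 at 0.431% was apart by 0.938 of the range, with the other 3 between 0.677 and 0.693%.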

How the results depend on the processing

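Of 50 values of members and comparisons, 27 were called and kept under each of up to 26 alternatives, 8 were called and lost at least once, 6 were not called but called at least once, and 9 were called in none. These values include the croton oil comparisons known when the set was chosen, and the same was not counted over all genes, so nothing is read from these totals. The count of members called between genotypes under vehicle, 4, was 2 with LC-DTA croton oil samples 3 and 4 left out, and 1 to 6 with a single sample left out: 1 without LC-DTR vehicle 2 or LC-DTA vehicle 3, and 2 without LC-DTA vehicle 2. The count for the difference of the responses, 4, was 2 with LC-DTR croton oil samples 2 and 3 left out. The direction turned for values that were not called: the response difference of Mycl (0.13 with that pair left out), and Myc under vehicle, which was 0.066 and 0.12 without LC-DTR vehicle 1 or 2, and 0.015 and 0.034 without LC-DTA vehicle 1 or 2 (over all single samples left out, -0.196 to 0.122). The causes were not tested. The filter of 5 TPM removed Mycn. The replicate numbers did not pair the samples: deviations of same-numbered samples correlated at -0.29 to 0.13, and each sample was closest to its own number in at most 1 of 3 pairs. With a replicate block the members called were 4 under vehicle and 3 for the difference of the responses; the calls of Mxi1 under vehicle (adjusted p = 0.0683), Myc after croton oil (adjusted p = 0.0502) and the response difference of Mxi1 (adjusted p = 0.0707) were lost, and Mxd1 under vehicle was called (-0.25, adjusted p = 0.0307), all by limma. Scaling moved the split of all called genes most under vehicle, from 2810 higher and 785 lower to 1811 and 1537 by median ratio and 1616 and 1772 by quantiles. TPM carry no read depth, so the precision of Mycn and Mxd3, the lowest members, is known only from their spread between samples.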
